A study of Homo sapiens with 24 samples.

Results

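The TRIM family comprised 74 protein-coding genes whose symbol is TRIM followed by digits and an optional letter, found by matching the 61860 Ensembl identifiers of the count tables to GENCODE 29. TRIM proteins carry a RING finger, B-box zinc fingers and a coiled coil at the amino-terminal end, and a variable carboxy-terminal domain that binds the substrate. The RING finger recruits a ubiquitin-conjugating enzyme and passes ubiquitin to the substrate, which can mark it for the proteasome or change its signaling. Many members act in the interferon and antiviral response, others bind chromatin, microtubules or RNA, and a few lack the RING finger. TRIM10, TRIM15, TRIM26, TRIM27, TRIM31, TRIM38, TRIM39 and TRIM40, 8 of the 74 members, lie in or near the major histocompatibility complex (MHC) on chromosome 6, and the other 66 elsewhere.

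The data were 24 RNA-seq libraries of OE33, an established cell line of esophageal adenocarcinoma (EAC), in 4 experiments of 3 treated and 3 control libraries. In the first, OE33 xenografts were taken 21 days after injection from nude male BALB/c mice bought at 4 weeks of age and fed for 8 weeks before injection on normal chow (ND) or on a diet rich in fat (HFD), and HFD mice were picked for a body weight well above that of ND mice. The other 3 used cultured OE33 cells, with HA-TRIM15 (a tagged TRIM15 plasmid) or empty vector (EV) for 48 h, shYY2 (a short hairpin RNA against the transcription factor YY2) or shControl for 72 h, and shFOXRED1 (against FOXRED1, a mitochondrial assembly factor of respiratory complex I) or its own shControl for 72 h. No control library was shared between experiments. Nude mice lack T cells but keep other host cells, and how mouse reads were handled is not given in the sources used here.

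Total counts per library lay between 14299807 and 45994561, and none of the 24 replicate pairs differed by less than the sampling noise. Values are CPM, counts scaled to 1e+06 per library after TMM normalization unless stated otherwise. Knockdown was checked first. YY2 measured 0.669, 0.72 and 0.595 CPM in the shYY2 libraries against 2.36, 2.36 and 2.32 in shControl, and FOXRED1 10.1, 11.2 and 8.83 in the shFOXRED1 libraries against 17.7, 17.2 and 17.3. FOXRED1 was also lower in the shYY2 libraries, at 19, 16.1 and 17.9 CPM against 33.6, 32.1 and 32.6. All 8 epithelial markers were tested in every experiment, and in HFD xenografts 4 were higher (KRT8, KRT18, CLDN4 and GATA6, by 1.14-fold to 1.33-fold), CDH1 and ERBB2 were lower (0.807-fold and 0.922-fold) and 2 were not called, among them EPCAM with a mean of 594 CPM against 589 CPM in ND.

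The promoter windows of 4 members are printed because their genes carry the contrasts described below: TRIM15 is the member added by plasmid, TRIM36 was called in every experiment, TRIM56 had the highest CPM, and TRIM14 fell under shYY2 and rose in HFD xenografts. Each window runs from 250 bases before to 50 bases after an annotated start, 5′ to 3′ on the gene's strand (RefSeq, GRCh38.p14), and capitals mark a motif match. They lie at chr6:30163296-30163595 (+ strand) for TRIM15, chr5:115180245-115180544 (− strand) for TRIM36, chr7:101085231-101085530 (+ strand) for TRIM56 and chr9:98119173-98119472 (− strand) for TRIM14.
TRIM15: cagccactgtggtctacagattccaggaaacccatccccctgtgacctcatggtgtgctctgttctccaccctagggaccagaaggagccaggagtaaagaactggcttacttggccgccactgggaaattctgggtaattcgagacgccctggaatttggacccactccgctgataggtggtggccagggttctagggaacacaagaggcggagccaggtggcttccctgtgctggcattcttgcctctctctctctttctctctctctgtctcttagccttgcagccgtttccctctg
TRIM36: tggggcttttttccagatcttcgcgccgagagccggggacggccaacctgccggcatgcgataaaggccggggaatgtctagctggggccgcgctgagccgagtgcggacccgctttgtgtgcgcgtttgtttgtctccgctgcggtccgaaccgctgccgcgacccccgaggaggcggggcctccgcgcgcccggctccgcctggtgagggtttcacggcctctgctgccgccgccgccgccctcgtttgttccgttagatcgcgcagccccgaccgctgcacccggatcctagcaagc
TRIM56: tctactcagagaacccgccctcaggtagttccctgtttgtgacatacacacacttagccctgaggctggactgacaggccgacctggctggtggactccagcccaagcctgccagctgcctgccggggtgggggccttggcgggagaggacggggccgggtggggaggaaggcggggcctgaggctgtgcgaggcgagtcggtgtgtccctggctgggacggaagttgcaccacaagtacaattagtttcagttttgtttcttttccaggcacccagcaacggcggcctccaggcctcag
TRIM14: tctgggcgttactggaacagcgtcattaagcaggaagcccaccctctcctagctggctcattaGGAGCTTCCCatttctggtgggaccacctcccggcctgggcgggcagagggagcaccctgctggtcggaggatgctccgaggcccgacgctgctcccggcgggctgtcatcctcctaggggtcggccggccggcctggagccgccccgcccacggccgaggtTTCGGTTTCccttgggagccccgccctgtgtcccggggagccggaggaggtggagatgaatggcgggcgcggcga
The motifs searched on both strands were the core of the interferon-stimulated response element (GAAANNGAA), the core shared by YY1 and YY2 (GCCATNTT) and the NF-κB consensus. The table held 77 windows for 58 of the members. The interferon core lay in 11 of these windows (14.3%, against 8.11% of all 35116 windows), in TRIM2, TRIM5, TRIM14, TRIM16, TRIM21, TRIM26, TRIM34, TRIM44, TRIM64C, TRIM69 and TRIM75. The YY core lay in 4 (5.19%, against 6.58%), those of TRIM34, TRIM49, TRIM49C and TRIM77, and the NF-κB consensus in 4 (5.19%, against 11.3%), those of TRIM2, TRIM14, TRIM31 and TRIM46. In the TRIM14 window the first run of capitals is the NF-κB match and the second the interferon core, and the windows printed for TRIM15, TRIM36 and TRIM56 hold none of the 3 motifs.

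About as many members were expressed in OE33 as were not. A mean of at least 1 CPM in each of the 3 cultured control groups was reached by 38 members and missed by 36. Of the latter, 33 stayed under 1 CPM in all 8 group means, 11 of them with more than 3 counts in some library. Of all members, 22 never exceeded 3 counts in any of the 24 libraries, and 9 were at 0 throughout (TRIM40, TRIM48, TRIM51, TRIM51G, TRIM58, TRIM60, TRIM61, TRIM64 and TRIM64C), which allows up to 3 counts per library, or 0.0628 to 0.205 CPM. The near-identical copies TRIM43, TRIM43B, TRIM49, TRIM49B, TRIM49C, TRIM64, TRIM64B and TRIM64C share reads, so their counts of 0 or 1 are uncertain. TRIM67, a microtubule-binding member, lay between 0 and 7 counts. The members over 1 CPM in a group mean but not in every cultured control group were TRIM15, TRIM69 and TRIM73.

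Levels between genes were compared per kilobase of exon, as the mean of the 3 cultured control groups. TRIM28, the corepressor that zinc-finger repressors recruit to chromatin, was highest with 74.9 CPM per kilobase, followed by TRIM56, an interferon-induced ligase of the DNA-sensing pathway, with 47.2, and TRIM25, the ligase that activates the RNA sensor RIG-I, with 32.7. TRIM4, another ligase of the RIG-I pathway, had 21.5 and TRIM8, a regulator of cytokine signaling, 20.4. The median of the expressed members was 6.94 and the lowest value 0.633, for the microtubule-associated TRIM46. The order is not the same in each culture: the ranges of the 3 control groups of TRIM4 (16.6 to 28 CPM per kilobase) and TRIM8 (17.7 to 25.2) overlap, and TRIM56 lay at 41.5 in EV and 58.7 in the shControl of the shFOXRED1 experiment.

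**Figure D1:**
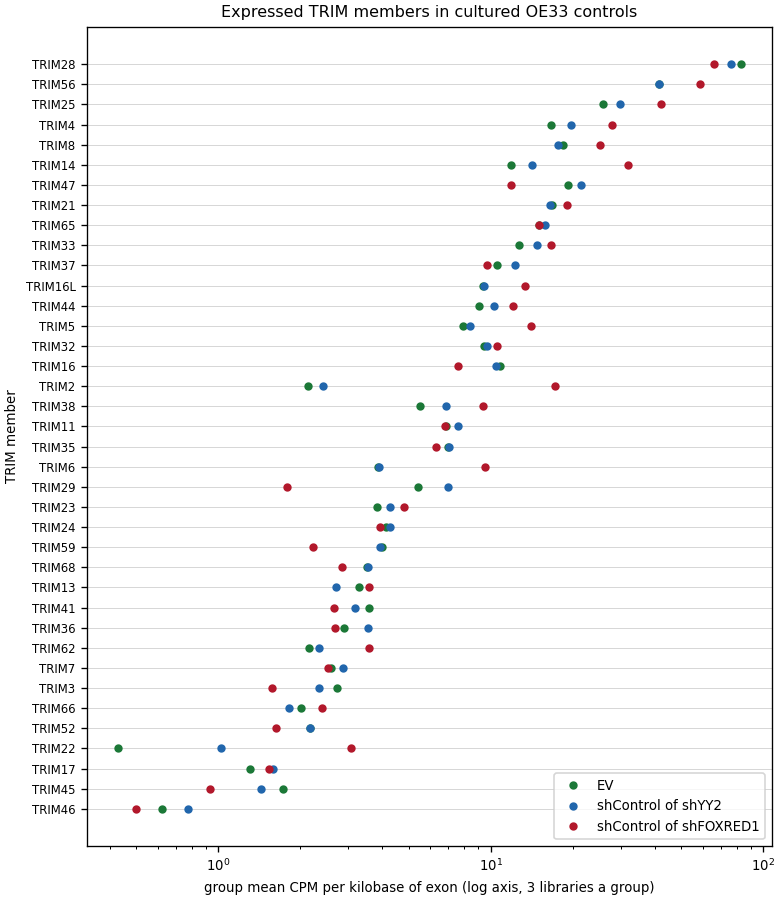
Group mean in CPM per kilobase of exon (x, log axis) for the 38 expressed TRIM members (y, ordered by the mean of 3 groups), with 1 point for each cultured control group of 3 libraries. TRIM28, TRIM56 and TRIM25 stand at the top, TRIM46 at the bottom, and the shControl of the shFOXRED1 experiment stands apart for TRIM2, TRIM29 and TRIM22.

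The control cultures were not alike for several members. TRIM2, a ligase of the NHL class known from neurons, had 163 CPM in the shControl of the shFOXRED1 experiment against 20.1 in EV and 22.8 in the shControl of the shYY2 experiment. TRIM14, a RING-less adaptor of mitochondrial antiviral signaling, had 175 against 65.3 and 77.7 CPM, and the interferon-induced TRIM22 18.5 against 2.59 and 6.12 CPM. TRIM29, a RING-less member of squamous and other epithelia, was lower there, at 18.3 against 55.2 and 71.3 CPM. These are values of separate experiments set side by side with no test, and culture, passage and library preparation cannot be told apart. Each treatment below is therefore read against its own control.

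The MHC members were nearly uncounted, with TRIM38 as the exception. TRIM38, which dampens innate immune signaling and lies at chr6:25962802-25991226 (GENCODE 29), had 50.2 to 95.7 CPM in the 9 cultured control libraries. TRIM10, TRIM26, TRIM27, TRIM31, TRIM39 and TRIM40 together had between 0 and 16 counts per library. TRIM26 and TRIM27, ligases that many tissues use, reached at most 7 and 4 counts, and TRIM39 at most 3. TRIM31, known from gastrointestinal epithelium, had 15, 11 and 3 counts in the shFOXRED1 libraries and 7, 5 and 4 in their shControl, and 0 or 1 in the other 18 libraries. None of these 6 was tested.

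The low counts were not particular to the TRIM genes. For this comparison CPM were scaled to total counts without TMM normalization. The 33 protein-coding genes from TRIM27 to TRIM39 (chr6:28903002-30343729) had a median of 0 CPM in the cultured controls. The median was 1.8 CPM on the rest of chromosome 6 and 7.56 CPM on the other chromosomes. Many of the 33 are olfactory receptor genes, such as OR2W1 and OR2B3 with 0 CPM, and their share in the low median was not tested. Beyond TRIM39, TUBB had 1.195 and RPS18 0.8495 CPM, while HLA-C had 21.08 CPM. What made the stretch low was not tested, so a low count of TRIM15, TRIM26, TRIM27 or TRIM39 cannot be read as a low level of its RNA.

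**Figure D2:**
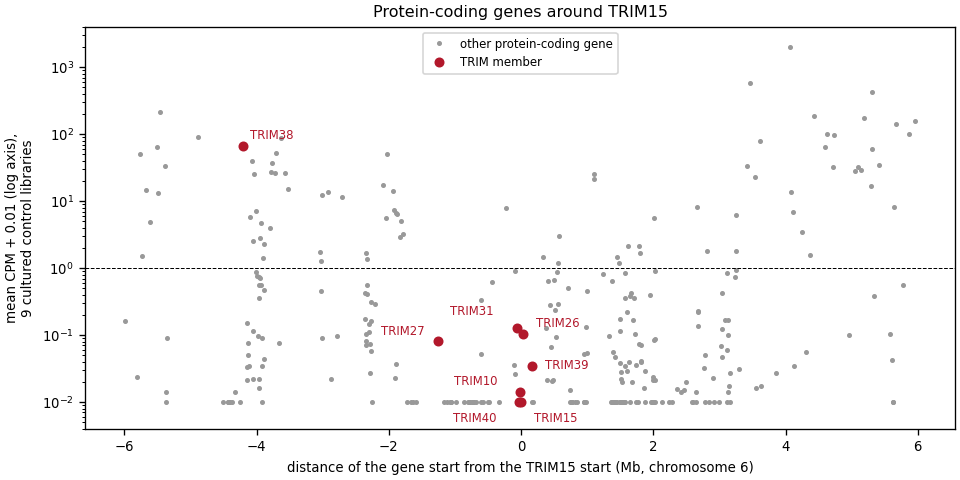
Mean CPM plus 0.01 over the 9 cultured control libraries (y, log axis) against the distance of each protein-coding gene's start from the TRIM15 start in Mb (x), with TRIM members in red and 1 CPM dashed. CPM here were scaled to total counts without TMM normalization. TRIM38 lies among counted genes to the left, and the other 7 members lie under the dashed line in a stretch where the median of 33 genes is 0 CPM.

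TRIM15 itself was read within these limits. It had 14, 12 and 24 counts in HFD and 1, 0 and 0 in ND xenografts, 111, 130 and 181 in HA-TRIM15 libraries and 0 in every EV library, and at most 1 count in any knockdown library or its control. Groups did not overlap in the first 2 experiments, and the mean was at least 6.03-fold higher in HFD and at least 64.5-fold higher with HA-TRIM15 against a floor of 3 counts per control library. Its 5.41, 8.45 and 11.4 CPM with the plasmid correspond to 3.35 CPM per kilobase, which ranked TRIM15 27th of the 74 members in those libraries. In the HFD xenografts it ranked 39th, below the 38 expressed members. TRIM15 lies in the stretch of low counts, so neither rank can be read as a rank of its RNA level. Over all groups, the TRIM15 counts were the most uneven, with a variance within groups of 19.6 times the mean, against 2.4 for TRIM38 and 14.9 for TRIM56. Nearly all of this came from the HA-TRIM15 libraries, with an SD of 3.02 CPM. The HFD libraries were even, with an SD of 0.0209 CPM, so the value does not describe the gene's own counts. The plasmid's reads cannot be told apart from those of the gene.

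In the xenografts, HFD moved a majority of the tested members, mostly by little. Of 43 members tested, 17 were higher and 9 lower in HFD at an adjusted p under 0.05, 60.5% against 49.5% of all genes tested (39.5% against 25.6% higher, 20.9% against 23.9% lower). The median log2 fold change of the members was 0.05, against −0.01 for all genes, and the median size of a called change 0.28. A fold of at least 2 was reached by TRIM15 and TRIM37 upward and by TRIM55 downward, 6.98% of the members tested against 3.83% of all genes.

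TRIM37, a ligase with a MATH domain that limits centrosome assembly and is the gene of mulibrey nanism, had 62.9, 62.9 and 61.5 CPM in HFD and 31.4, 30 and 31.6 in ND xenografts. Every HFD library lay well above every ND library, which the naming rule selects for, and groups did not overlap for 56.2% of all genes tested. The log2 fold change was 1.01 (standard error 0.04, edgeR, adjusted p = 1.88e-11). TRIM37 did not pass the test with HA-TRIM15 (60.2, 62.9 and 63.9 against 58.7, 57 and 57.9 CPM, edgeR, adjusted p = 0.0829) or shYY2 (edgeR, adjusted p = 0.343). The 18 cultured libraries lay between 47.6 and 69.6 CPM, so the 3 ND libraries stood below every other library.

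Of the 5 members without a RING finger, 4 were higher and 1 lower in HFD, where 25.6% of all genes were higher and 23.9% lower, and their median log2 fold change was 0.26, against −0.01 for all genes. TRIM14 had 71.2, 69.7 and 73.8 CPM against 41.4, 41 and 44, with no overlap, which the naming rule selects for (log2 fold change 0.77, standard error 0.04, edgeR, adjusted p = 4.69e-10). TRIM16, linked to the oxidative stress and autophagy response, had 80.8, 80.5 and 93.9 CPM against 59.6, 63.7 and 66.4 (log2 fold change 0.44, edgeR, adjusted p = 7.99e-06). TRIM44 rose by a log2 fold change of 0.26 and TRIM29 by 0.19. TRIM16L, a near copy of TRIM16 that RefSeq lists as a transcribed pseudogene, fell by 0.20 on the log2 scale, and reads shared by TRIM16 and TRIM16L make both uncertain.

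Others rose from different classes. TRIM36, a microtubule-binding ligase of the C-I class, had 17.8, 16.9 and 16.7 CPM in HFD and 12.6, 11.2 and 12.3 in ND xenografts (log2 fold change 0.52, edgeR, adjusted p = 1.45e-05). TRIM59, a membrane-anchored ligase, had 25.5, 25.9 and 25.1 against 19.4, 18.2 and 18.2 CPM (log2 fold change 0.46, edgeR, adjusted p = 5.11e-06), though 14.5% of its exon bases are shared with SMC4 on the same strand. TRIM47 (log2 fold change 0.34), TRIM25 (0.34), TRIM35 (0.24), TRIM8 (0.23), TRIM11 (0.20), TRIM2 (0.19) and TRIM38 (0.16) were higher by less, as were TRIM7 and TRIM65 with 0.31 each, and 51.5% of the TRIM47 exon bases lie opposite another gene.

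The largest drop in HFD was that of TRIM55, a muscle member, with 0.307, 0.218 and 0.157 CPM against 0.562, 0.712 and 0.605 in ND (log2 fold change −1.56, standard error 0.34, edgeR, adjusted p = 0.00125). It rests on 4 to 7 counts per HFD library, and TRIM55 was named after its value was seen. TRIM45, which carries a filamin-type domain, had 5.66, 4.32 and 5.75 CPM in HFD against 7.53, 7.01 and 7.96 in ND (log2 fold change −0.48, edgeR, adjusted p = 0.00171). TRIM52, a member with an expanded acidic RING loop, had 13.7, 13.4 and 14.7 against 16.5, 16.9 and 18.7 CPM (log2 fold change −0.30). TRIM68 (−0.24), the chromatin member TRIM66 (−0.23), TRIM4 (−0.17), TRIM6 (−0.19) and TRIM41 (−0.13) were lower too. TRIM6 lost its call without HFD replicate 1 or 2 (edgeR, adjusted p = 0.0708 and 0.0525) and TRIM41 when any 1 library other than ND replicate 1 was left out (0.0561 to 0.0949). Among the chromatin members, TRIM28 (log2 fold change 0.07, edgeR, adjusted p = 0.105), TRIM24 and TRIM33 did not pass.

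In the marker lists of other cell types, the genes COL1A1 and ITGAM were lower in HFD. The summed CPM of 6 fibroblast markers lay between 23.7 and 27 in HFD and 30.5 and 33.5 in ND xenografts, nearly all of it COL1A1, and that of 6 leukocyte markers between 8.96 and 10.1 against 11.4 and 12.2, nearly all of it ITGAM. COL1A1 and ITGAM were the only marker of their list tested, DCN, CD3E, MS4A1 and PTPRC had means under 0.1 CPM, and the sums of 4 endothelial and of 4 adipocyte markers were at most 0.525 and 0.558 CPM. COL1A1 and ITGAM were counted in the cultures as well, where no host cells are present. Their part in the results above was not tested. A smaller number of cells of a type, less RNA per cell and a lower level in the OE33 cells themselves cannot be told apart in such samples.

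HA-TRIM15 left most members near their EV level. Of 40 members tested, 7 were higher and 6 lower, 32.5% against 22.1% of all genes (17.5% against 12.5% higher, 15% against 9.53% lower), with a median log2 fold change of −0.02 against −0.01 for all genes. TRIM15 alone passed with a fold of at least 2 (2.5% of members against 0.724% of all genes), and the median size of a called change was 0.18. When each library was left out in turn, TRIM15, TRIM28 and TRIM47 were called every time, and the other 10 lost their call in 1 to 5 of 6 fits. The log2 fold changes of these 10 kept their sign and lay between 0.78 and 1.3 times the value from all libraries, and for TRIM56, which lost its call in 5 of the fits, between −0.129 and −0.0893. Without EV replicate 1, 2 or 3 the number higher was 4, 3 and 3, and the number lower was 11 without HA-TRIM15 replicate 1, 3 without HA-TRIM15 replicate 2, 2 without EV replicate 2 and 3 without EV replicate 3.

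TRIM47, a ligase of the SPRY class, had 55.8, 49.1 and 47.7 CPM with HA-TRIM15 and 60.1, 60.1 and 60.7 with EV, a drop opposite in sign to its change in HFD (log2 fold change −0.24, standard error 0.05, edgeR, adjusted p = 0.00507). TRIM28 had 313, 288 and 281 against 335, 328 and 338 CPM (log2 fold change −0.18, edgeR, adjusted p = 0.0036). In both genes the lowest EV library lay above the highest HA-TRIM15 library, and groups did not overlap for 37.7% of all genes tested. TRIM45 (log2 fold change −0.41), TRIM7, which binds glycogenin (−0.25), TRIM16L (−0.16) and TRIM56 (−0.11) were lower as well, and each lost its call without at least 1 library.

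TRIM36 had 19.8, 22.8 and 24.6 CPM with HA-TRIM15 and 18.1, 16.5 and 18.4 with EV (log2 fold change 0.33, standard error 0.08, edgeR, adjusted p = 0.00961), and without EV replicate 2 its adjusted p was 0.0543. TRIM6, an innate immune ligase, had 16.5, 19.3 and 20 against 15.6, 15 and 14.9 CPM (log2 fold change 0.29, edgeR, adjusted p = 0.0193), and 29.3% of its exon bases are shared with the readthrough gene TRIM6-TRIM34. TRIM29 (0.18), TRIM38 (0.16), the SMAD4-binding chromatin member TRIM33 (0.16) and TRIM25 (0.11) were higher by little, and each lost its call without at least 1 EV library. The members of the NHL and transmembrane classes, 5 tested in all, had no call, where 22.1% of all genes were called. So few genes cannot set these classes apart from that share. TRIM14 (64.7, 65 and 67.1 against 65.9, 65.6 and 64.4 CPM) and TRIM16 (62.5, 58.9 and 58.6 against 62.5, 59.4 and 61.4 CPM), both higher in HFD, overlapped between HA-TRIM15 and EV, and whether the changes differ between the experiments was not tested.

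**Figure D3:**
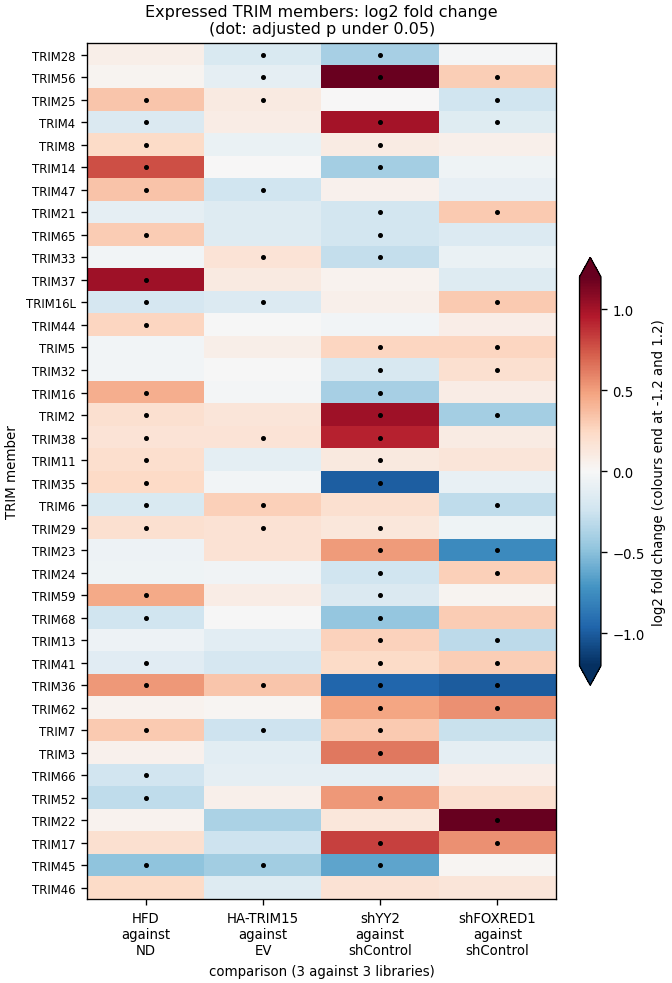
Log2 fold change (colour, ending at −1.2 and 1.2) of the 38 expressed TRIM members (rows, by level per kilobase) in the 4 comparisons of 3 against 3 libraries (columns), with a dot where the adjusted p was under 0.05. The shYY2 column holds the most dots, the HA-TRIM15 column the fewest, TRIM22 under shFOXRED1 has the largest change at 1.57, and TRIM36 alone has a dot in all 4 columns.

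YY2 knockdown shifted most members, as it did most genes. Of 40 members tested, 17 were higher and 13 lower, 75% against 75% of all genes (42.5% against 36.8% higher, 32.5% against 38.1% lower), so the share called is that of the background. The median log2 fold change was 0.11 for the members and −0.01 for all genes, and a fold of at least 2 was reached by TRIM56, TRIM2 and TRIM73, all higher. These are 7.5% of the members tested, below the 19.6% of all genes that changed by such a fold. Genes of the marker lists moved in these OE33 cultures too, where no host cells are present and the genes do not stand for other cell types. COL1A1 had a mean of 42.7 CPM against 10.6 and ITGAM 6.15 against 10.4. PLIN1, the 1 gene of the adipocyte list tested, had 0.987 against 0.236 (edgeR, adjusted p = 0.000255). Their link to the TRIM changes was not tested.

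TRIM56, already the member with the highest CPM, had 1050, 1020 and 1090 CPM with shYY2 against 453, 453 and 482 with shControl (log2 fold change 1.19, standard error 0.03, edgeR, adjusted p = 2.85e-14). TRIM2 had 47.2, 45.7 and 45.4 against 21.8, 22.6 and 23.9 CPM (1.02, edgeR, adjusted p = 4.42e-11), and TRIM4 197, 189 and 194 against 96.3, 95.6 and 98.1 CPM (1.00, edgeR, adjusted p = 1.2e-13). The knockdown libraries of these 3 genes all lay far above their controls, and groups did not overlap for 76.3% of all genes tested. TRIM38 had 120, 121 and 125 against 63.9, 62.8 and 66.5 CPM (0.92, edgeR, adjusted p = 1.33e-12). TRIM17 had 11, 9.48 and 9.47 against 6.09, 5.43 and 5.4 CPM (0.82, edgeR, adjusted p = 3.85e-06), and the NHL member TRIM3 rose by a log2 fold change of 0.64. Smaller rises were those of TRIM52 (0.52), TRIM23 (0.51), TRIM62 (0.48), TRIM7 (0.31), TRIM13 (0.28), TRIM5 (0.26), TRIM41 (0.23), TRIM29 (0.14), TRIM11 (0.12) and TRIM8 (0.10). TRIM11 lost its call without shYY2 replicate 2 or shControl replicate 3, and TRIM8 without replicate 1 or 3 of either group. TRIM73, a short near copy of TRIM50 and TRIM74, rose by 2.00 but measured 1.16, 2.58 and 1.35 CPM against 0.494, 0.295 and 0.454, and 12.8% of its exon bases are shared with other genes on its strand.

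Among the members that fell, TRIM35, which restrains a glycolytic enzyme, had 15.2, 13.3 and 16.9 CPM against 29.6, 29.9 and 30.7 (log2 fold change −0.99, standard error 0.07, edgeR, adjusted p = 5.77e-09). TRIM36 had 10.8, 12.7 and 9.95 against 20.8, 22.9 and 21.2 CPM (−0.95, edgeR, adjusted p = 5.84e-08). Neither gene overlapped between the groups, which the naming rule selects for and which held for 76.3% of all genes tested. TRIM45 fell by 0.63 on the log2 scale, TRIM68 by 0.46, TRIM14 by 0.41 and TRIM16 by 0.40, with TRIM59 (0.18) and the NHL member TRIM32 (0.19) falling least. TRIM59 lost its call without shYY2 replicate 3 (edgeR, adjusted p = 0.0668). TRIM14 stood at 54, 57.5 and 63.7 CPM against 77.4, 78.6 and 77.1.

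Of the 4 chromatin members, TRIM28, TRIM33 and TRIM24 were lower under shYY2, where 38.1% of all genes were, and the class had a median log2 fold change of −0.26, against −0.01 for all genes. TRIM66, the fourth, did not pass (log2 fold change −0.11, edgeR, adjusted p = 0.228). TRIM28 had 234, 237 and 225 CPM against 315, 313 and 292 (log2 fold change −0.40, edgeR, adjusted p = 2.87e-08) and TRIM33 114, 116 and 117 against 141, 141 and 142 CPM (−0.29, edgeR, adjusted p = 2.15e-07). Of the 9 antiviral members tested, 3 were higher (TRIM56, TRIM38 and TRIM5), 3 lower (TRIM14, TRIM21 and TRIM65) and 3 not called, near the 36.8% and 38.1% of all genes that were higher and lower, and their median was 0.14. TRIM65, a ligase of the RNA sensor MDA5, fell by 0.22 on the log2 scale, and so did TRIM21, the cytosolic antibody receptor. TRIM22 was at 7.61, 5.7 and 6.82 against 6.26, 6.56 and 5.55 CPM, with overlap and no call (edgeR, adjusted p = 0.339).

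**Figure D4:**
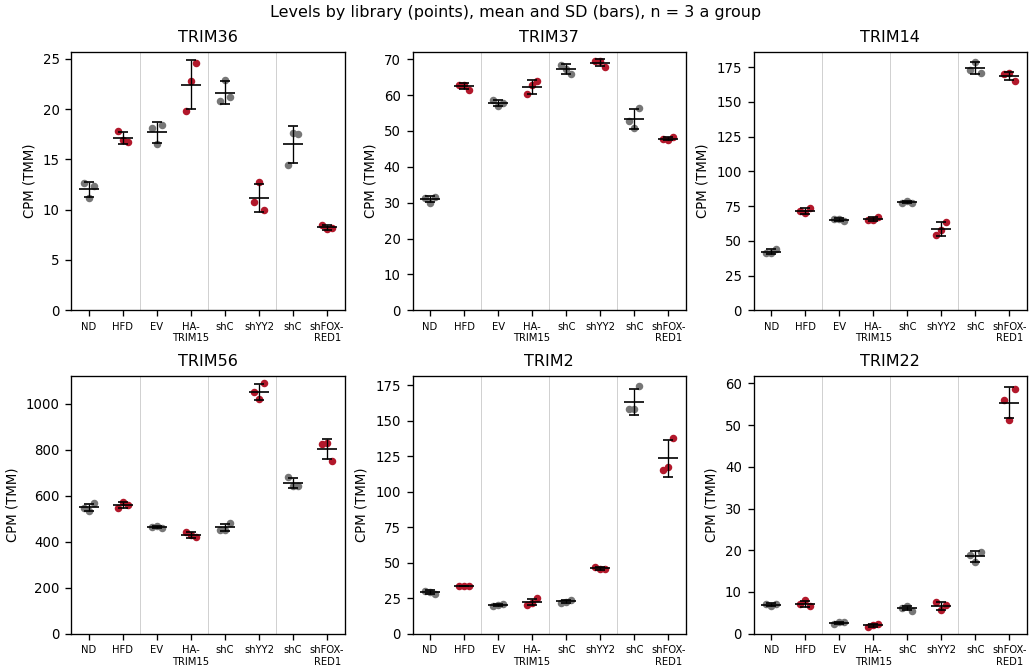
CPM after TMM (y, from 0) of 6 TRIM members in each library (points, control grey and treated red) by group (x, shC for shControl), with the mean and SD of 3 libraries as bars. TRIM37 and TRIM14 separate HFD from ND, TRIM56 and TRIM2 rise under shYY2, TRIM22 is highest under shFOXRED1, and TRIM36 moves in every experiment.

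Fewer members were called under FOXRED1 knockdown than under YY2 knockdown. Of 40 tested, 11 were higher and 7 lower, 45% against 36.6% of all genes (27.5% against 16.8% higher, 17.5% against 19.7% lower), with a median log2 fold change of 0.07 against 0.01. COL1A1, of the fibroblast list but counted here in cultures without host cells, was higher as well. It had a mean of 40.3 CPM against 24.6 (log2 fold change 0.71, edgeR, adjusted p = 1.53e-06), and its link to the TRIM changes was not tested. With the replicate number as a block, 13 were higher and 9 lower, since TRIM11 (edgeR, adjusted p = 0.0411) and TRIM68 (0.036) passed upward and TRIM37 (0.0377) and TRIM65 (0.0177) downward. TRIM22 was the member that reached a fold of 2 (2.5% of members against 3.46% of all genes), with 56, 51.3 and 58.6 CPM against 18.8, 17.1 and 19.7 (log2 fold change 1.57, standard error 0.08, edgeR, adjusted p = 4.59e-10). Each shFOXRED1 library thus held more than any control library, which the naming rule selects for, in a culture whose control already stood above the other cultures for TRIM22.

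TRIM62, a regulator of cell polarity, had 19, 18.5 and 19.8 CPM against 12.5, 11.7 and 15.1 (log2 fold change 0.54, edgeR, adjusted p = 0.00101). TRIM21 had 49, 46.6 and 40.4 against 37.4, 38.2 and 34.2 CPM (0.31), TRIM41 rose by 0.30 and TRIM56 by 0.29, and TRIM16L by 0.31. TRIM17 (log2 fold change 0.55), TRIM24 (0.29), TRIM5 (0.26) and TRIM32 (0.19) were higher too. TRIM17 lost its call without shFOXRED1 replicate 1 or 2 or shControl replicate 2 or 3, TRIM32 when any 1 library other than shFOXRED1 replicate 1 was left out, and TRIM41 without shFOXRED1 replicate 1. TRIM73 measured 2.61, 1.57 and 2.19 against 1.32, 1.33 and 0.815 CPM (log2 fold change 0.86, edgeR, adjusted p = 0.0408). When any 1 library other than shFOXRED1 replicate 2 was left out, TRIM73 lost its call (edgeR, adjusted p from 0.0531 to 0.18).

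TRIM36 fell most, with 8.49, 8.06 and 8.14 CPM against 14.4, 17.6 and 17.5 (log2 fold change −0.996, standard error 0.12, edgeR, adjusted p = 5.76e-06). TRIM23, which couples a RING finger to an ARF-type GTPase domain, had 13.4, 12.7 and 14.6 against 20.1, 22.6 and 26.4 CPM (−0.77, edgeR, adjusted p = 5.1e-05). TRIM2 had 115, 117 and 138 against 158, 158 and 174 CPM (−0.40, edgeR, adjusted p = 0.000203). None of these groups overlapped, which the naming rule selects for and which held for 46.7% of all genes tested. TRIM13, a membrane-anchored ligase, fell by 0.31 on the log2 scale, TRIM6 by 0.30, TRIM25 by 0.24 and TRIM4 by 0.15, and TRIM13 lost its call without replicate 1 or 2 of shFOXRED1 or replicate 1 or 3 of shControl. TRIM4 lost its call in each fit without 1 library except that without shFOXRED1 replicate 3.

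TRIM36 was the member called in all 4 experiments. It was higher in HFD xenografts and with HA-TRIM15, and lower with shYY2 and shFOXRED1. The call with HA-TRIM15 was lost without EV replicate 2. Of the 43 members tested anywhere, 40 were called at least once (93%, against 82.6% of the 17730 genes tested anywhere), 11 in 3 experiments (25.6% against 19.5%), 22 in 2 (51.2% against 28.9%) and 6 in 1 (14% against 28.7%). All 4 experiments called 2.33% of members and 5.56% of genes. TRIM46 and TRIM69 were tested in all 4 and called in none. TRIM45 was lower in HFD, HA-TRIM15 and shYY2 libraries, while with shFOXRED1 it had 3.55, 4.87 and 3.9 CPM against 2.7, 5.64 and 3.94 (edgeR, adjusted p = 0.957).

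The difference between the knockdowns was tested in a model over their 12 libraries. It passed for 23 of 41 members, 56.1% against 54.4% of all genes, with the shYY2 effect the higher for 12 (29.3% against 26.4%) and the lower for 11 (26.8% against 28%). TRIM2 (difference 1.42, standard error 0.09, edgeR, adjusted p = 3.86e-11), TRIM23 (1.28, standard error 0.13, edgeR, adjusted p = 3.43e-08) and TRIM4 (1.15, edgeR, adjusted p = 5.96e-13) were higher with shYY2 and lower with shFOXRED1. TRIM22 (−1.44, standard error 0.15, edgeR, adjusted p = 4.39e-08) was raised under shFOXRED1, and TRIM35 (−0.90, edgeR, adjusted p = 1.26e-05) was lowered under shYY2. For TRIM36 the difference was 0.04 with a standard error of 0.15 (edgeR, adjusted p = 0.84). Called in both knockdowns were 14 of the 40 members tested in both, 35% against 31.2% of 14922 genes: 6 higher in both (TRIM5, TRIM17, TRIM41, TRIM56, TRIM62 and TRIM73), TRIM36 lower in both, 4 higher with shYY2 and lower with shFOXRED1 (TRIM2, TRIM4, TRIM13 and TRIM23), and 3 the reverse (TRIM21, TRIM24 and TRIM32). In that order these are 15%, 2.5%, 10% and 7.5% of the members, against 9.31%, 12.7%, 5.07% and 4.13% of the genes.

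**Figure D5:**
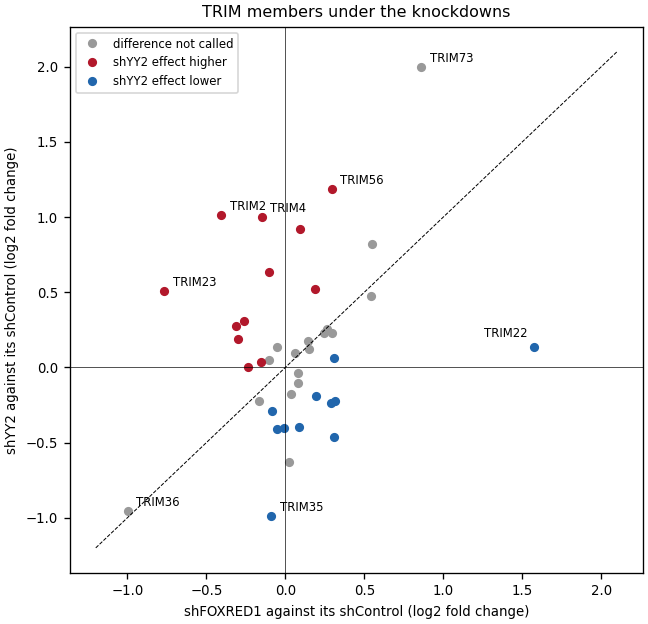
Log2 fold change under shYY2 (y) against that under shFOXRED1 (x) for the 40 TRIM members tested in both, coloured by whether the difference passed an adjusted p of 0.05, with the line of equal change dashed. TRIM2, TRIM4 and TRIM23 lie in the upper left, TRIM22 far to the right near 0 on the y axis, and TRIM36 on the line at the lower left.

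Relatives with other symbols and the ubiquitin enzymes that serve the family were counted from fixed lists. Of the 9 relatives, 8 were tested in HFD xenografts, with 4 higher and 1 lower, 8 with HA-TRIM15 (2 and 0), 8 with shYY2 (3 and 3) and 6 with shFOXRED1 (1 and 1). PML, the organizer of nuclear bodies, was higher in HFD (log2 fold change 0.11), shYY2 (0.67) and shFOXRED1 libraries (0.47). Of the 20 genes of ubiquitin, its activating enzymes and its conjugating enzymes, 8 were higher and 2 lower in HFD, 7 and 1 with HA-TRIM15, 4 and 13 with shYY2, and 1 and 10 with shFOXRED1. The shares of all genes called higher and lower were 25.6% and 23.9% in HFD, 12.5% and 9.53% with HA-TRIM15, 36.8% and 38.1% with shYY2, and 16.8% and 19.7% with shFOXRED1. The median log2 fold changes of the ubiquitin genes were 0.07, 0.06, −0.24 and −0.17 in that order. UBA6, an activating enzyme, rose by 0.49 in HFD and by 0.14 with HA-TRIM15 and fell by 0.70 with shYY2 and by 0.96 with shFOXRED1. UBE2V2, a cofactor of the conjugating enzyme UBE2N, rose by 0.75 in HFD and by 0.14 with HA-TRIM15 and fell by 0.26 with shYY2 and by 0.40 with shFOXRED1.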

How the data were processed

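RNA-seq of 24 OE33 libraries was analysed, 3 per group, grouped by title and treatment label. Per gene, the authors deposited the raw count of reads, whole numbers without normalization, in 4 tables of 61860 Ensembl identifiers. The labels list the builds hg38 and mm10 without a role, and the aligner, the counter and their strand setting are not given in the sources used here. All value columns were used, and 0 were left out.

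Members were named and placed with GENCODE 29 (GRCh38). Of 75 genes that follow the symbol rule, TRIM80P was dropped as a pseudogene. Members, lists and the naming rule were chosen with earlier results of these data known. Named were the MHC members, up to 6 members per direction and experiment with the largest called change, a mean of at least 1 CPM and no overlap between groups, the 5 highest per kilobase, those called in all 4 experiments, the 5 with the largest difference between knockdowns, and TRIM8, TRIM16, TRIM28, TRIM56, TRIM59 and TRIM67, which the study discusses. Others are named after their values were seen. Groups did not overlap for 56.2% of all genes tested in HFD, 37.7% with HA-TRIM15, 76.3% with shYY2 and 46.7% with shFOXRED1. For a member named by that rule, the lack of overlap was fixed in advance. Values of 2 genes outside the family are not reported here.

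In R 4.3.3, edgeR 4.0.16 compared treated with control libraries within each experiment (filterByExpr with a minimum count of 10 and a minimum total count of 15, TMM, glmQLFit and glmQLFTest), with p-values adjusted by Benjamini-Hochberg over the whole table of tested genes and a threshold of 0.05. The knockdowns were compared by an interaction term over their 12 libraries. Standard errors were derived from the fold change (log2) and its F statistic. Nothing in the labels says that replicates came from separate cultures or mice, so p-values measure the spread between libraries, and the smallest p of an exact permutation of 3 against 3 libraries is 0.1. Limits from counts of 0 cover counting error only. In simulations that changed 200 genes, 78.4% to 95.9% of 2-fold and 26% to 46% of 1.2-fold changes were recovered. Alternatives were DESeq2 1.42.0 (size factors and Wald test), other count filters, fold thresholds, a replicate block and leaving out each library.

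Replicate numbers were checked for pairing by correlating deviations from group means. Over genes with a mean of at least 10 CPM, the shFOXRED1 libraries gave 0.211, 0.125 and 0.41, all above 0.1, the limit set for pairing. Over all genes tested they gave 0.0318, 0.0125 and 0.0775, and the labels give no reason for pairing. Pairing is thus uncertain: the main shFOXRED1 calls and p-values come from the fit without it, and the block counts are given beside them. Replicate 2 correlated more with another number (0.205) than with its own, and replicate 1 reached 0.148 with another. In the other experiments at least 1 number stayed under 0.1.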

Additional observations from a re-analysis of the deposited data

Results flagged for a closer look

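The effect of shYY2 differed from that of shFOXRED1 for the 5 members named by that rule (edgeR's interaction test over 12 libraries, log2 scale): TRIM2 by 1.42, TRIM23 by 1.28, TRIM4 by 1.15, TRIM35 by −0.90 and TRIM22 by −1.44. TRIM2 and TRIM22 started from control levels that differ between the 2 cultures, 163 against 22.8 CPM for TRIM2 and 18.5 against 6.12 CPM for TRIM22, and the part of this in the difference was not tested. Groups of 3 libraries were not tested for outlying libraries.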

How the results depend on the processing

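No named member reversed its direction in the alternatives run. Of 77 called values of named members, 59 kept their call in every alternative fit that gave an adjusted p, and 65 of 873 such fits lost a call. Alternatives that gave the member no adjusted p are not counted there. TRIM15 in HFD and with HA-TRIM15, and TRIM73 with shYY2, each lacked a call in an alternative of that kind. DESeq2's Wald test left 0 members higher by 2-fold with HA-TRIM15, so TRIM15 was not called by it. Requiring a fold of at least 1.2 left 10 members higher and 3 lower in HFD, 3 and 1 with HA-TRIM15, and 12 and 8 with shYY2. With shFOXRED1 the called TRIM32 (1.14-fold) and TRIM4 (0.901-fold) fell short of it too, and a full count is not given. Requiring 2-fold left 2 and 1 in HFD, 1 and 0 with HA-TRIM15, 3 and 0 with shYY2, and 1 and 0 with shFOXRED1. Without a filter on low counts the median log2 fold change of members was −0.124 with HA-TRIM15 and 0.14 with shFOXRED1, over more members. DESeq2's Wald test gave 17 and 7 calls in HFD, 6 and 6 with HA-TRIM15, 17 and 12 with shYY2 and 9 and 7 with shFOXRED1.

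Leaving out 1 library at a time gave 17 to 18 members higher and 7 to 9 lower in HFD, 3 to 9 and 2 to 11 with HA-TRIM15, 16 to 18 and 12 to 13 with shYY2, 8 to 11 and 5 to 9 with shFOXRED1, and 10 to 13 and 11 to 13 for the difference of the knockdowns. The medians ranged from 0.0582 to 0.0863, from −0.0485 to −0.00786, from 0.0695 to 0.138 and from 0.0542 to 0.0929 in the same order. All calls held in these fits for 24 of 26 members in HFD, 3 of 13 with HA-TRIM15, 27 of 30 with shYY2 and 12 of 18 with shFOXRED1. With the replicate block, HFD kept 17 and 9 calls, HA-TRIM15 had 7 and 7 (TRIM41 gained), shYY2 18 and 13 (TRIM6 gained), shFOXRED1 13 and 9, and the difference of the knockdowns 12 and 13. The count of expressed members was 39 at 0.5 CPM and 38 at 2 CPM or with the ND xenografts added. Depth limits members under 1 CPM, where 3 counts are up to 0.205 CPM.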
